A study of Mus musculus with 4 samples.

Results

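Ly86 and Cd180 are the genes of a receptor pair of the innate immune system, and the methylation differences deposited for them are described here in microglia, the resident macrophages of the brain. The series compared DNA methylation by whole-genome bisulfite sequencing, in which unmethylated cytosine is converted and methylated cytosine is not, so that the share of unconverted reads gives a level from 0 to 1. There were 4 samples, 2 labelled WT and 2 labelled IRF8KO, the latter from mice without IRF8, a transcription factor of myeloid cells. All were FACS-sorted, untreated microglia of C57BL/6J mice 3 months of age, and the labels name no targeting construct, Cre or litter and do not say whether the 2 samples of a genotype came from separate animals.

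The data analysed here are 2 tables in which the authors compared the groups, one of single positions and one of regions. Neither table holds a value per sample, so the scatter among samples of a group cannot be shown here and the read depth behind a level is unknown. The p-values and FDR values of the authors can at most reflect the spread between these samples, which may be technical. Many positions share a common pair of dispersions, the fitted spread within each group, of 0.0571 and 0.0558. At those positions the p-value and FDR do not measure the position's own spread. The groups are numbered in the headers and not named, so they are called the first and the second group, with no genotype given to either. Every difference is the first minus the second group, and lower means a lower level in the first group.

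The members are 2 of 21938 protein-coding genes on the assembled chromosomes. Rows inside each gene or within 50000 bp of it were taken from both tables, which gave 226 of 269406 listed positions and 1 of 3389 regions. The pair was chosen by measured values, because the region over the start of Ly86 was already known to have a large difference, and Cd180 was added as its partner. Levels and differences at both genes are therefore given as a description, with no test added. The false discovery rates (FDR) are those of the authors.

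Ly86 encodes MD-1, a small secreted glycoprotein that binds RP105, the product of Cd180, and is needed for RP105 to reach the cell surface. RP105 is a receptor with leucine-rich repeats that resembles TLR4, the receptor for bacterial lipopolysaccharide (LPS), but lacks the cytoplasmic signalling domain of the Toll-like receptors. MD-1 likewise resembles MD-2 (gene Ly96), the partner of TLR4. In macrophages and dendritic cells the RP105 and MD-1 complex is known to restrain the response of TLR4 to LPS, and in B cells it promotes proliferation. CpG methylation near a gene start is in general low where the gene is transcribed.

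In the GRCm38 (mm10) build, Ly86 (ENSMUSG00000021423.6) lies on the plus strand of chromosome 13 from 37345208 to 37419036 and has 5 exons. The authors' region spans 37344879 to 37346854, which is 1976 bp. It begins 329 bp before the annotated start and holds all of exon 1 and the first 1280 bp of intron 1. The 300 bases before the start are shown first, because the largest differences begin there, and the coding part of exon 1 next, since it encodes the first residues of MD-1. Both are plus-strand sequence of GRCm38, 5′ to 3′, at chr13:37344908-37345207 and chr13:37345439-37345574. Capitals mark the positions in the authors' list, which are the C and the G of each CpG and, before the start, also 2 positions that are no CpG.

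Ly86 before the start: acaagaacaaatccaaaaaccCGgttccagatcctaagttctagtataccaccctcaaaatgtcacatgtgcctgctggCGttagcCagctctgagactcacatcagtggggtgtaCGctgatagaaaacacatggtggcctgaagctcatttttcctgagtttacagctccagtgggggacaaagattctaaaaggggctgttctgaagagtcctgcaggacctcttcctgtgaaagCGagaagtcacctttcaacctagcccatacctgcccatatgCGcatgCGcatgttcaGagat

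Ly86 coding part of exon 1: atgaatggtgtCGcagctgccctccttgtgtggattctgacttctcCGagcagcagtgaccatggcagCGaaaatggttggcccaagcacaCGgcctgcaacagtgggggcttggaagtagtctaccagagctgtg

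Ly86 was far less methylated in the first group over the whole of this stretch. For the region, the authors' deposited table gives a mean level of 0.241 in the first group, 0.866 in the second and a difference of -0.625. It held 120 listed positions, all lower in the first group, and 119 of them had an FDR under 0.05. The single exception lies 328 bp before the start, on the G of the first CpG, with an FDR of 0.314 in the authors' deposited table. Its C, 1 base away, has the same difference of -0.362 and an FDR of 0.0276 there. Over all listed positions, 18.7% had an FDR under 0.05 and 7.84% had one and were lower in the first group. The rule chose Ly86 for this region, so nothing is read from the count against those shares.

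The list is complete across the region. The deposited row numbers follow position and appear to number the tested positions, and those of the region run without a break from the first to the last of its 120 positions. The reference sequence holds 54 CpGs there, and both positions of every one were listed, 108 in all. The other 12 listed positions are a C or G outside a CpG of the reference. Neighbouring positions shared fitted values, so that the 120 positions carried 51 distinct differences.

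**Figure D1:**
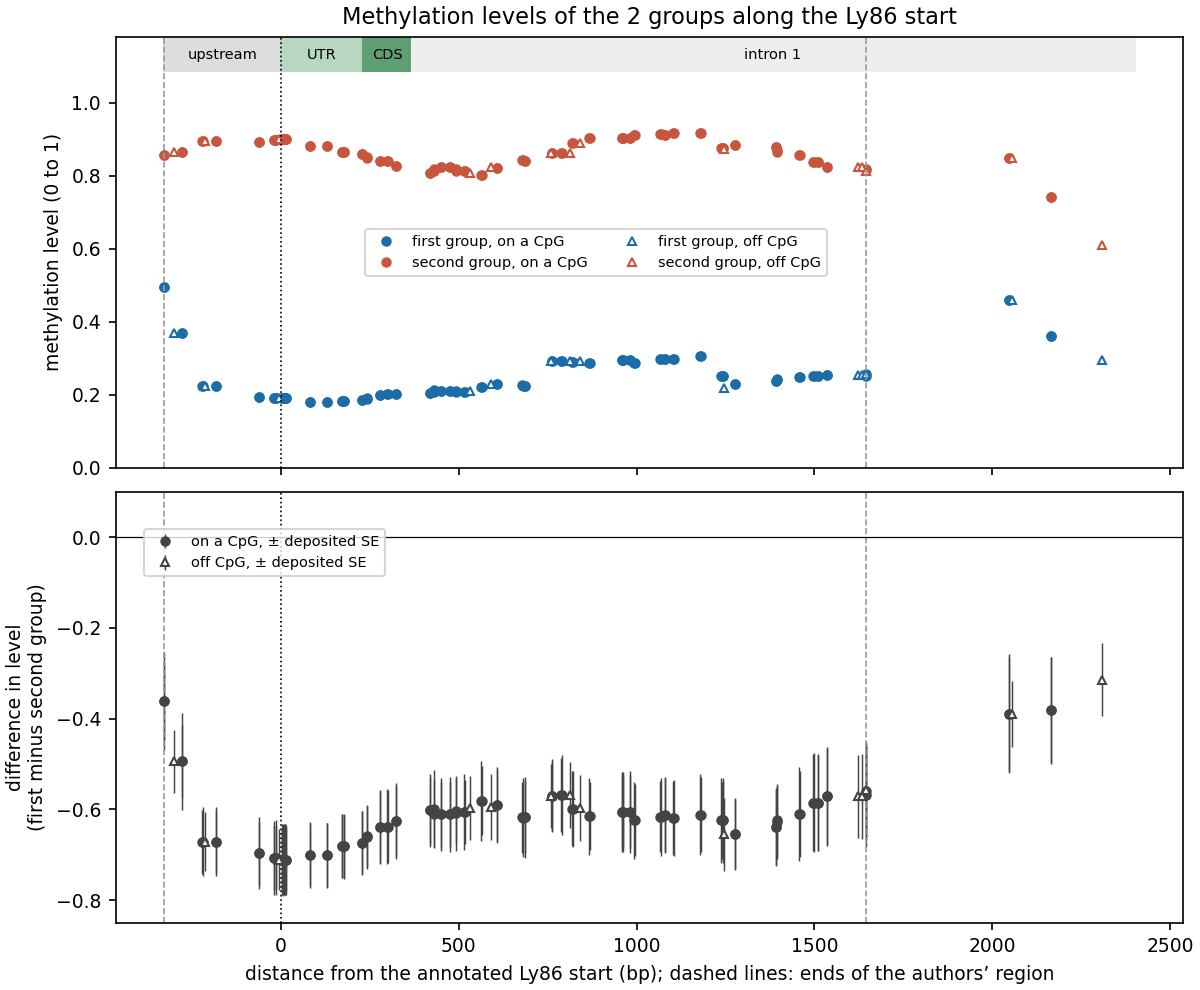
Methylation levels (upper panel, scale 0 to 1) and their difference with the deposited standard error (lower panel) against the distance in bp from the annotated Ly86 start, for each listed position; filled circles lie on a CpG of the reference, open triangles do not. The second group stays above 0.8 between the dashed ends of the region, while the first group falls from 0.496 at the first position to 0.181 just past the start and then stays at or below 0.306 to the region's end.

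The profile of levels differed in shape between the groups. The authors' deposited table has the second group between 0.801 and 0.917 over the region, and all its 120 positions were above 0.8. The first group ranged from 0.181 to 0.496, with 113 of 120 positions below 0.3. Its highest level was at the first CpG of the region, and its lowest 80 bp past the start. From the first CpG its level stepped from 0.496 to 0.369 and then to 0.224 before the gene start, and the second group had no matching step.

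By annotated part, the 17 positions before the start had a median difference of -0.671 and a median deposited standard error (SE) of 0.0761. The 22 positions of the 5′ UTR had the largest median difference, -0.711, with an SE of 0.0701. The UTR is also the part densest in CpGs, with 11 in 231 bp or 4.76 per 100 bp, against 2.13 before the start. In the coding part of exon 1 the 8 positions had a median difference of -0.638 and an SE of 0.0796. Intron 1 held 73 positions with a median difference of -0.606 and an SE of 0.0829. The medians thus ran from -0.711 to -0.606 beside SEs of 0.0701 to 0.0829 for 1 position, and no test between parts was made.

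In steps of 200 bp from the region's upstream end, the median level of the first group was 0.297, then 0.190 and 0.184 around the start. It was 0.203 and 0.211 in the next 2 steps and between 0.291 and 0.299 in the 3 after those. The last 2 steps had 0.240 and 0.253. The second group was at 0.879, 0.901 and 0.865 in the first 3 steps, at 0.824 and 0.816 in the next 2, then at 0.863, 0.902 and 0.911, and at 0.874 and 0.824 at the end. Both groups were therefore lower in the 4th and 5th steps than in the 3 that followed, and the median difference stayed between -0.618 and -0.599 over those 5 steps.

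The largest difference, -0.711, was shared by 13 positions from 5 bp before to 14 bp past the start, 12 of them on CpGs. In the authors' deposited table their levels are 0.190 and 0.901. The one outside a CpG, 5 bp before the start and the last capital of the sequence shown there, has an SE of 0.0668 and an FDR of 5.09e-21 in the authors' deposited table. Those on CpGs have SEs from 0.0676 to 0.0795 there, and their highest FDR is 3.07e-14.

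Listed positions continued past the end of the region. By the row numbers the next 6 tested positions, 2046 to 2308 bp past the start, were all listed too. In the authors' deposited table the first of them has levels of 0.460 and 0.849, and the last 0.296 and 0.610. Only 1 of the 6 had an FDR under 0.05, at 2057 bp, which lies outside a CpG. With these the unbroken run of listed positions was 126 long and 2638 bp wide. Next to it, 162 tested positions upstream and 147 downstream were not listed. Positions outside the list have no level here.

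Among all regions, the one over Ly86 combined a large difference with a large extent. Its area score, the authors' summary statistic of a region, was 2nd of 3389 in size, its cytosine count 4th and its length 8th. By absolute difference it was 34th, at 0.625 against a median of 0.405. The 33 regions with a larger difference held at most 30 cytosines each, and none of the 6 other regions with at least 100 cytosines exceeded it. The level of the second group in the region, 0.866, compares with a median of 0.772 over the 1581 regions lower in the first group. That of the first group, 0.241, compares with a median of 0.332.

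Its CpG content lay within the middle range of the regions. The observed over expected CpG ratio was 0.443 against a median of 0.341 over all regions (quartiles 0.225 and 0.488), and its GC content was 49.7% against 48.2%. In the RefSeq promoter set (GRCm38.p6, 250 bases before to 50 after each start), Ly86 had 13 CpGs and Cd180 had 5, with a median of 7 over all 32851 promoters. Fewer CpGs than at Ly86 were found in 62.1% of promoters, and fewer than at Cd180 in 38.0%. The RefSeq start of Ly86 lies further downstream than the GENCODE start used for distances here.

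Few protein-coding genes had a region across their start, taken as the most 5′ annotated start of the gene. Starts of other transcripts were not counted. Of 21938 genes, 12 had one, and 7 (0.0319%) had one that was lower in the first group. Ly86 had the largest difference and the most cytosines of the 7, and the median difference of the 7 was -0.410. The 5 others nearest to it in region difference were Nr3c1, Klri1, Phf11d, Rbpj and 4930564D02Rik, in that order. Likeness here is only the gap between 2 deposited region differences from 1 comparison of 2 groups. Nr3c1, which encodes the glucocorticoid receptor, came closest, with 34 cytosines and levels of 0.214 and 0.821 in the authors' deposited table, a difference of -0.606. Klri1, a killer-cell lectin-like receptor gene, followed with a difference of -0.483 over 11 cytosines there. Phf11d, Rbpj (the DNA-binding effector of Notch signalling) and 4930564D02Rik had -0.410, -0.398 and -0.393 in the authors' deposited table.

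**Figure D2:**
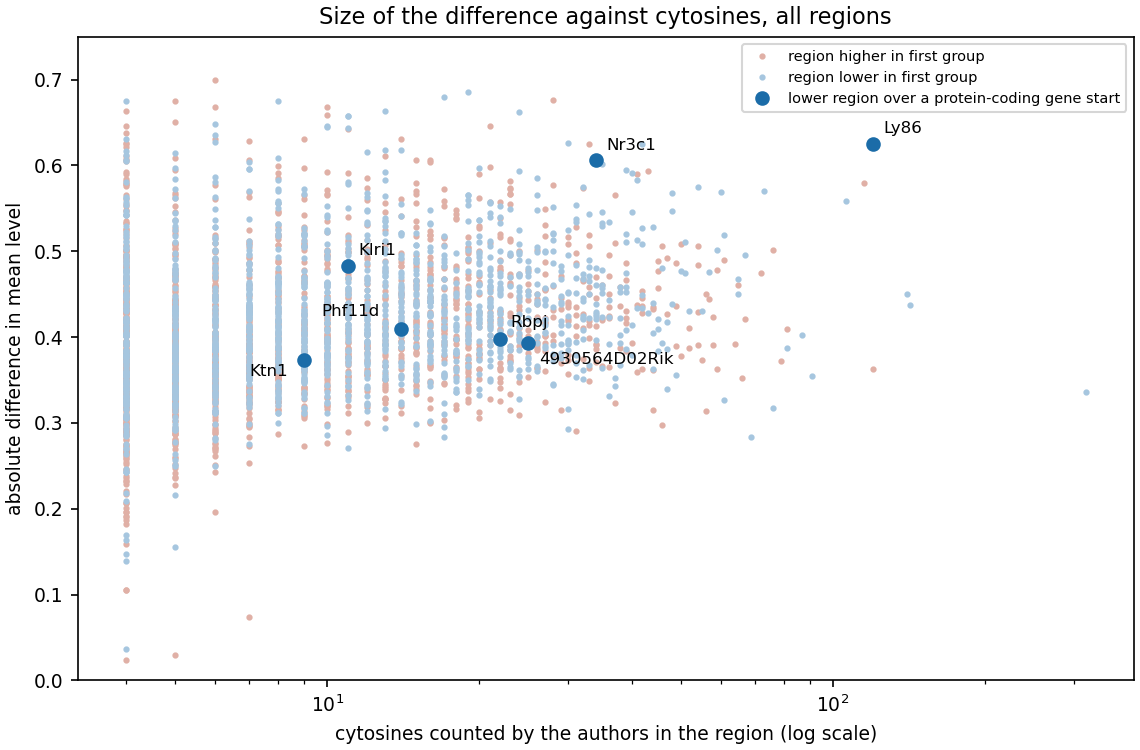
Absolute difference in mean level against the number of cytosines the authors counted (log scale) for all 3389 regions; pale points are regions higher or lower in the first group, and large labelled points are the 7 lower regions that cover the start of a protein-coding gene. Ly86 stands at 120 cytosines and 0.625, with Nr3c1 next to it in difference at 34 cytosines.

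The rest of the Ly86 window had many listed positions and few with a low FDR. Outside the region 72 positions were listed, 61 lower and 11 higher in the first group, and 5 had an FDR under 0.05. Of these 5, only 1 lies on a CpG. In all, the window had 192 listed positions and 124 with an FDR under 0.05, every one of them lower in the first group. By interpolation between row numbers about 3717 positions were tested in the window, and 5.17% of them were listed, a share that the region chosen by the rule dominates. Outside the region 2.00% of about 3597 tested positions were listed, against 0.630% over the whole table.

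Before the gene, 2 groups of positions lower in the first group came nearest. One, 13159 to 12870 bp before the start, had 5 positions outside CpGs, where the authors' deposited table gives differences from -0.313 to -0.233. The other, 10295 to 9485 bp before the start, had 13 positions, of which 10 on 5 CpGs, and the same table of the authors gives -0.397 to -0.250. The lowest FDR of the 2 groups was 0.0565. Higher in the first group were 8 positions about 44 kb before the start, for which the authors' deposited table gives 0.333 to 0.345 and an FDR of 1, and 1 position 14391 bp before it.

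Inside the gene, all 130 listed positions were lower in the first group. Past the run at the start they fell into 7 groups within introns 1 and 3, with 21 positions among about 1198 tested. The intronic group with the lowest FDR lies 25456 to 25517 bp past the start, in intron 1. Its 3 positions share levels of 0.143 and 0.648 and a difference of -0.504 in the authors' deposited table. The C and the G of its CpG were not equal in error. The authors' deposited table gives the C an SE of 0.0483 and an FDR of 3.73e-20, and the G an SE of 0.183 and an FDR of 1. The C had the dispersion pair that many positions share, 0.0571 and 0.0558, and the G had its own.

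Further into the gene, a position 15644 bp past the start had a difference of -0.275 and an FDR of 0.0391 in the authors' deposited table. One at 53304 bp, in intron 3, had -0.382 and 9.63e-05 there. Neither lies on a CpG. In intron 3, 8 positions 65000 to 65194 bp past the start were lower by -0.367 to -0.272 in the authors' deposited table, and their lowest FDR was 0.400. No listed position lay in exons 2 to 5.

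Past the end of Ly86, 18 positions were listed and 0 had an FDR under 0.05 in the authors' test. The largest group of these, 15 positions 41298 bp or more past the gene end, was lower in the first group by -0.306 to -0.275 in the authors' deposited table. The 5 other annotated genes of the window, the long non-coding Gm47711, Gm4035, Gm47730, Gm29459 and Gm29458, held no listed position. At the edges of the window, the last listed position inside it upstream has a difference of 0.333, and the first outside, 53537 bp from the gene, 0.304 in the authors' deposited table. Downstream the last inside has 0.293 and the first outside, 70374 bp away, -0.362 there.

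**Figure D3:**
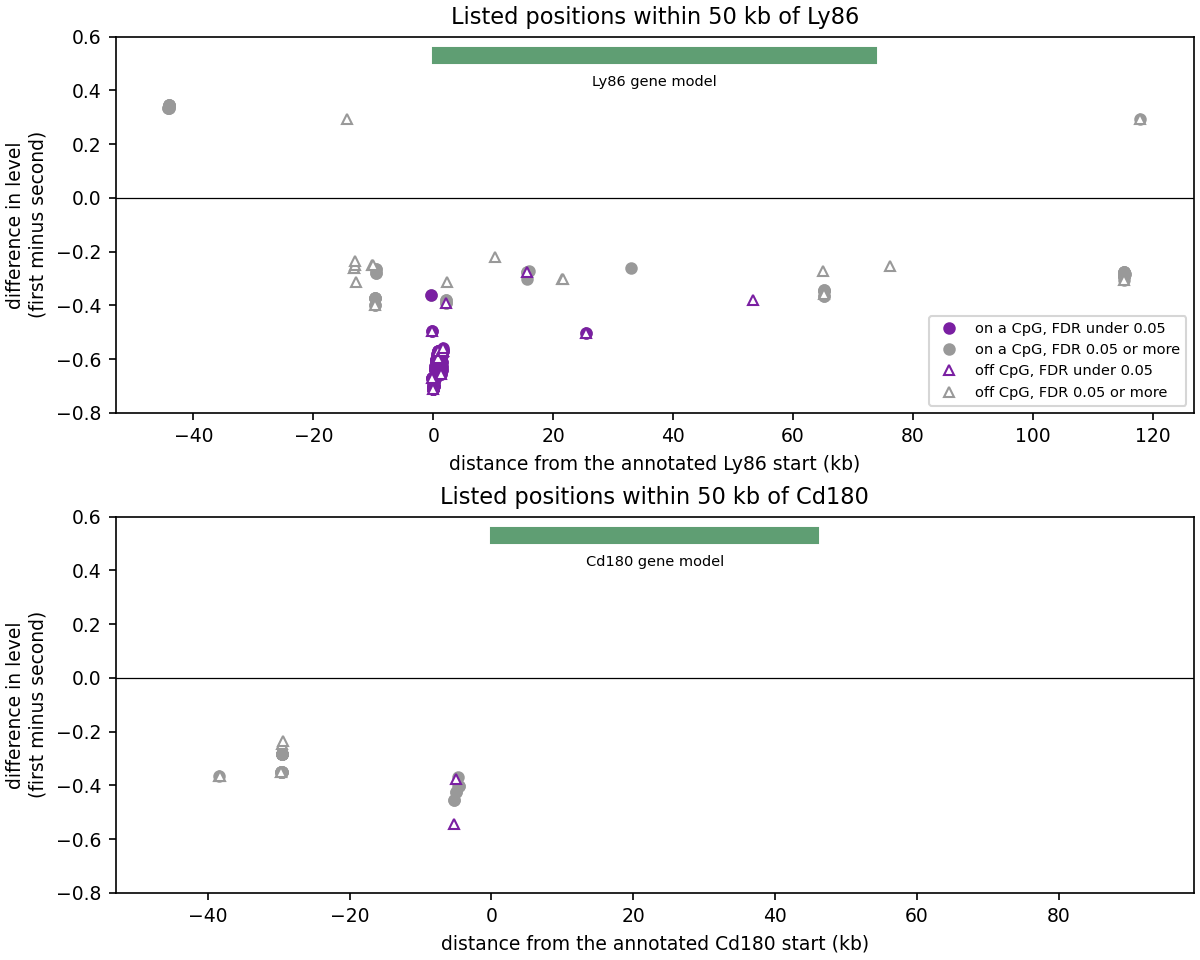
Difference in level (first minus second group) of each listed position against the distance in kb from the annotated start of Ly86 (upper) and Cd180 (lower); purple marks an FDR under 0.05, filled circles lie on a CpG and open triangles do not. Ly86 has a dense column of purple circles at its start, with differences down to -0.711, while Cd180 has 34 positions, all before the gene, with 2 purple triangles.

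Cd180 (ENSMUSG00000021624.9) lies on the same chromosome and strand from 102693558 to 102739629. Its coding transcript of 3 exons ends at 102706955, and longer models run on over the end of Mast4 on the other strand. No region was called within 50000 bp of Cd180. Of protein-coding genes, 18.8% had a region that near. Its window had 34 listed positions in 3 groups, all before the gene and all lower in the first group. Their median difference was -0.349, with a median SE of 0.108. Near Ly86, 181 of the 192 listed positions were lower too and 11 were higher. Neighbouring positions share fitted values, so nothing is read from the common direction.

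Cd180 had 2 positions with an FDR under 0.05, and neither lies on a CpG of the reference. At least 1 such position was present within the same distance of 59.0% of protein-coding genes, and at least 1 on a CpG near 48.1% of them. As few as 2 or fewer were found at 74.0% of genes. For Ly86 the count of 124 was exceeded by 7 genes. Of the 26 listed positions of Cd180 on CpGs, 0 had an FDR under 0.05 in the authors' test. Their unadjusted p-values were all under 0.05, as for every listed position of both windows, so that count carries no information.

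The group nearest to Cd180 lies 5288 to 4570 bp before its start and holds 10 positions, 8 of them on 5 CpGs. A position outside a CpG, 5274 bp before the start, has the lowest FDR. The authors' deposited table gives it levels of 0.260 and 0.803, a difference of -0.544, an SE of 0.0522 and an FDR of 4.67e-20. The CpG before it, 5288 and 5287 bp from the start, has levels of 0.141 and 0.594 in the authors' deposited table and SEs of 0.183 and 0.153, with FDR values of 1 and 0.737. The CpG after it has a difference of -0.425 and an FDR of 1 at both positions there. The 2nd position with an FDR under 0.05, 4943 bp before the start, has levels of 0.504 and 0.882, an SE of 0.0681 and an FDR of 0.000124 in the authors' deposited table. The other 4 positions, on 3 further CpGs, had differences from -0.404 to -0.368 there, and their lowest FDR was 0.336. Levels at CpGs and at the 2 other positions pointed the same way, and the SE separated them. Neighbouring positions often share fitted values, so the common direction may not be independent.

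Of the more distant groups, the one 29637 to 29407 bp before the start had 21 positions over 9 CpGs. In the authors' deposited table the first group was at 0.164 to 0.174 and the second at 0.402 to 0.523, so that this stretch was low in the first group and intermediate in the second. None of its FDR values was below 0.355. The 3 positions 38386 to 38313 bp before the start shared levels of 0.244 and 0.610 in the authors' deposited table, with FDR values of 0.132 or more.

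Nothing was listed in Cd180 itself. Over a stretch of 112417 bp that holds the whole gene, no position appears in the list, while the row numbers count 2947 tested positions and the reference holds 1315 CpGs. That shows only that no position there passed the authors' limit, a posterior probability of at least 0.95 in the values, and gives no level for either group. The next listed position, 61777 bp past the gene end, is higher in the first group by 0.543 in the authors' deposited table, with an FDR of 0.00631. Upstream the first outside the window, 163078 bp from the gene, has -0.336 and an FDR of 0.00296 there. Mast4, 1700099I09Rik and Gm17160, the other annotated genes of the window, held no listed position in it.

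Positions outside CpGs differed from those on CpGs in their errors. All 42 listed ones in the 2 windows (34 at Ly86, 8 at Cd180) are a C or a G of the reference. Each position has a dispersion per group, and many share that pair; 0 of the 42 had values other than these in both. Over the whole list 0.0828% of such positions had one, against 59.5% on CpGs. Their median SE was 0.0882 against 0.107, and 23.6% had an FDR under 0.05 against 17.3%. In the region over the Ly86 start, 97 of 120 positions had their own dispersion, and 96 of these had an FDR under 0.05. At Cd180 17 of 34 had their own, and none of these passed. What these positions stand for was not tested.

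Motifs of factors that act in microglia were searched on both strands. The composite element of ETS and IRF factors, GGAANNGAAA, was not in the Ly86 region. Of windows of the same length (1976 bp) centred on all regions, 31.6% hold it. The pair of IRF half-sites, GAAANNGAAA, occurred once in the Ly86 region, 1378 bp past the start in intron 1, where 27.1% of such windows have it. It is shown with 30 bases on each side, at chr13:37346556-37346625, and the capitals mark the motif.

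Ly86 intron 1 at the IRF pair: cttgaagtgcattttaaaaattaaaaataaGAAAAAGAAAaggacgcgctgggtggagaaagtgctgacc

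The same pair of half-sites occurred once, on the minus strand, in the intronic group of Ly86 at 25 kb, where 2.12% of windows of 102 bp have it. That group is shown with 20 bases on each side, at chr13:37370644-37370745, with capitals at the listed positions. Neither match overlaps a composite element. The PU.1 core GAGGAA occurred once in the Ly86 region (87.3% of windows). The AP-1 element TGANTCA was not in it (48.9% of windows). None of the 4 motifs was in the RefSeq promoter window of Ly86, against 2.72%, 3.44%, 28.3% and 7.81% of all promoters in the order given. The stretch at 25 kb held no composite element, PU.1 core or AP-1 element, which 3.98%, 12.4% and 4.34% of windows of 102 bp have. A match or its absence says only which letters are there.

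Ly86 intron 1 at 25 kb: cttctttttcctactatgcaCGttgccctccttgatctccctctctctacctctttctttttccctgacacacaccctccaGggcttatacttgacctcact

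The genes around this receptor pair were counted from a list of 22. It was chosen with earlier results of these data known, so no excess is read from its shares. Of these, 15 (68.2%) had a position with an FDR under 0.05 within 50000 bp, 12 (54.5%) had one on a CpG, and 9 (40.9%) had a region. The shares over all protein-coding genes were 59.0%, 48.1% and 18.8%. The median number of positions with an FDR under 0.05 was 2.5 in the list and 1 over all genes. Lower regions were near 4 of the 22 genes and higher regions near 6, so no single direction held.

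The TLR4 complex, which the Ly86 product resembles in part, was counted over 4 genes. Of these, 2 (50%) had a position with an FDR under 0.05 within 50000 bp and 1 (25%) had a region. The shares over all protein-coding genes were 59.0% and 18.8%. Only 7 of 21938 genes had more such positions than Ly86, so nothing is read from a lack of its pattern here. Tlr4 had 6 positions with an FDR under 0.05, all higher in the first group, and no region. Ly96, the gene of MD-2, had 1 listed position and none with an FDR under 0.05. Lbp, the LPS-binding protein gene, had no listed position. Cd14, the gene of the LPS co-receptor, had a region 34832 bp outside the gene with a difference of -0.425 in the authors' deposited table, and its 2 positions with an FDR under 0.05 were both lower and both outside CpGs.

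Among adaptors and kinases, Map3k7 (the kinase TAK1) had 2 regions inside the gene, with -0.457 and -0.434 as their differences in the authors' deposited table. Myd88, the shared adaptor of most Toll-like receptors, had a region 37787 bp outside with -0.411 and one 11998 bp outside with 0.310 there. Irak3, an inhibitory member of its kinase family, had 0.392 inside the gene in the authors' deposited table. Traf6, a ubiquitin ligase of the pathway, had 0.377 and 0.327 inside the gene, and Tirap, an adaptor for TLR2 and TLR4, had 0.415 at 6664 bp outside there.

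Of the genes through which RP105 signals in B cells, Vav1, an exchange factor, had a region 20769 bp outside with -0.492 in the authors' deposited table. Lyn, a Src family kinase, had one 38366 bp outside with 0.405 there. Btk, a Tec family kinase, had no position with an FDR under 0.05. Tlr2 had a region 3041 bp outside with 0.345 in the authors' deposited table, and Tlr1 and Tlr6 had no listed position. None of these genes had a region over its annotated gene start, the only start counted, which only 12 of all 21938 protein-coding genes had.

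**Figure D4:**
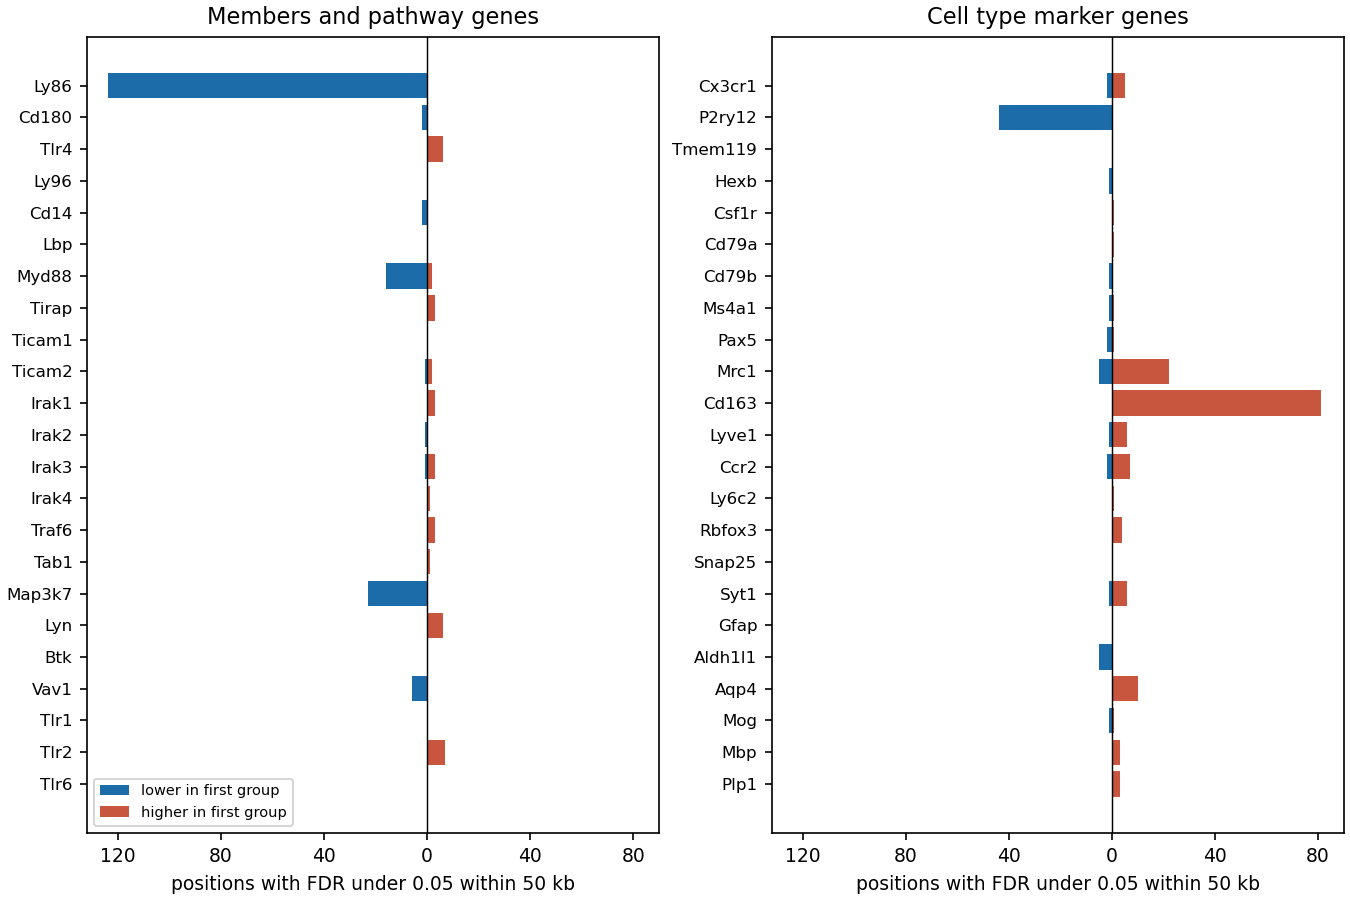
Number of listed positions with an FDR under 0.05 within 50 kb of each gene, drawn to the left where lower and to the right where higher in the first group, for Ly86, Cd180 and 21 of the 22 pathway genes (left panel) and 23 of the 24 marker genes of cell types (right panel). Ly86 has 124 to the left and Cd180 2; P2ry12 has 44 to the left and Cd163 81 to the right.

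Ly86 and Cd180 are expressed by B cells and by other macrophages as well as by microglia, so markers of those cells were counted in the same way. The tables hold no expression, and the labelled cell type could not be checked by it. Near the 5 microglial markers 47 positions with an FDR under 0.05 were lower and 6 higher in the first group, and P2ry12, a purinergic receptor of microglia, had 44 of the lower ones. Near the 5 markers of border macrophages and monocytes 8 were lower and 117 higher, and Cd163, a scavenger receptor, had 81 of the higher ones. Near the 5 B cell markers 4 were lower and 3 higher. Neurons, astrocytes and oligodendrocytes, with 3 markers each, had 1, 5 and 1 lower and 10, 10 and 7 higher. Over all listed positions with an FDR under 0.05, 41.9% were lower. A region was near 9 of the 24 markers (37.5%), against 18.8% of all protein-coding genes. The markers too were chosen with earlier results of these data known, so no excess is read from that share. Positions near markers of other macrophages were thus mostly higher, unlike those near Ly86 and P2ry12, and the part of the cells' makeup in the difference at Ly86 was not tested.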

How the data were processed

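Sorted microglia from 3-month-old mice were sequenced after bisulfite conversion (50 ng DNA from 40000 cells, 8 cycles of PCR, paired reads of 75 bases, per the labels' protocols). Trim Galore, Bismark and the build mm10 are named in the submitters' processing notes, without roles or versions. The caller of positions and regions, its smoothing and its coverage minimum are named in no source used here. Per the file headers, the authors deposited methylation levels per group (0 to 1), their difference with its standard error, dispersions, a test statistic (score), a p-value and FDR, a posterior probability and, for regions, an area score. Unused per-sample columns numbered 0.

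Positions and regions inside each gene or within 50000 bp were taken with Python 3.11.15 and pandas 2.3.3, and the window and cluster counts were tested on simulated data. Genes are those of GENCODE M21, sequences the GRCm38.p6 genome of RefSeq and its promoters. A CpG is one of that reference. Positions within 500 bp form a group. A position has its own dispersion if neither value is the commonest one of its column. The row numbers, up to 42734461, were read as an index of tested positions. An FDR under 0.05 is the authors' own. Named were the members, the pathway genes with a region within 50000 bp, other protein-coding genes in the windows and the 5 genes with a start in a lower region nearest in difference; the other genes named (pathway genes without a region, markers and non-coding genes) were named after their values were seen. Members and lists were chosen with earlier results of these data known. With 2 samples a group and no value per sample, no test was added, and depth is unknown. A gene of the lists and a sequence near Cd180 are not reported here.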

Additional observations from a re-analysis of the deposited data

How the results depend on the processing

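Of 25 alternatives, 18 stayed within 1.5 times the count or 1 median standard error of the value, 7 moved and 0 reversed. No reversal was possible: a count has no direction, and every position behind the median difference was lower in the first group. The 124 positions near Ly86 with an FDR under 0.05 became 4 when groups within 500 bp were counted. Outside the region over the start 5 were left, and 1 of these on a reference CpG; both settings were chosen after seeing the data. The 2 positions near Cd180 became 0 on reference CpGs, 0 with their own dispersion and 1 as a group. Within 100000 bp of Cd180 there were 3, and the added one, 61777 bp past the gene end, was higher in the first group by 0.543. Pathway genes with a region fell from 9 to 5 within 10000 bp, where 9.19% of all genes had one. The settings that moved a count admit or group fewer items by construction. Some others could not move theirs: the called region covers the Ly86 start and holds 120 cytosines. A window of 10000 bp or a minimum of 10 cytosines therefore had to keep it. The median difference at the Ly86 start, -0.617, lay between -0.618 and -0.616. No paired analysis was possible because neither file gives single samples; leaving out a replicate, the replicate block and a coverage minimum were not run for the same reason. Depth, which is unknown, limits every level.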
